A study of Mus musculus with 12 samples.

Results

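Interferon and innate antiviral genes were examined for N6-methyladenosine (m6A) peaks in C17.2 cells, a mouse line of immortalised neural stem cells (NSCs), labelled WT. The H/R group (hypoxia/reoxygenation) spent 12 h at 5% O2 and then 48 h in standard oxygen, as an in vitro stand-in for ischemia-reperfusion, and the control group was not exposed. Both groups came from this 1 line, grown in the same medium. Each group had 3 immunoprecipitated and 3 input samples, from which the authors called 1 list of mRNA peaks per library. The lists are named by group and by a letter, A to C, which the labels do not tie to their replicate numbers, and values per list are given in the order A, B, C. The members were chosen by symbol: names that start with Oas, Ifi, Ifn, Irg, Iigp, Gbp, Gvin or Isg, or with Irf, Stat or Tlr and a digit. The rule found 53 genes of the 10030 genes with a peak in at least 1 of the 6 mRNA lists. Of 119 protein-coding genes that match these names in the RefSeq annotation, 52 had a listed peak, among them 7 of 10 Gbp, 5 of 12 Tlr, 3 of 10 Oas and 6 of 26 Ifn genes.

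Interferons are secreted proteins that alert cells to infection. They bind cell-surface receptors (Ifnar1 with Ifnar2 for type I, Ifngr1 with Ifngr2 for type II), whose Janus kinases activate Stat transcription factors. These, in type I signalling with Irf9, enter the nucleus and switch on interferon-stimulated genes, which include RNA sensors, ubiquitin-like Isg15, the Ifit RNA-binding proteins and the large GTPases of the Gbp and Irg families that attack vacuoles of intracellular microbes. m6A is an internal methyl mark on adenosines of RNA. It is written mainly within the DRACH consensus, often near stop codons, and it is read by proteins that alter the stability and translation of the transcript. An m6A peak here is a stretch of exon where the immunoprecipitate held more reads than the local background, with its fold enrichment given as a ratio. A peak needs both the mark and enough transcript, so a change in methylation and a change in the amount of RNA cannot be told apart in these lists.

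Peaks were more numerous in the members after H/R, while their share of each list was alike in both groups. H/R A to C held 72, 62 and 87 member peaks, against 50, 39 and 28 in control A to C. Every H/R list lay above every control list, at 73.7 ± 12.6 peaks in the H/R group and 39 ± 11 in the control group (SD, n = 3 each), and the exact permutation p (two-sided here and below) of 0.1 is the smallest that 3 against 3 libraries allow. The labels do not say whether the replicates were separate cultures, so such p-values measure only the spread between these samples. The lists themselves differed in the same way, with 13954 to 22038 mRNA peaks in the H/R lists and 7863 to 12180 in the control lists. As a share of each list the member peaks made up 0.408 ± 0.032% in the H/R group and 0.401 ± 0.041% in the control group (SD, n = 3 each), and the groups overlapped. With every list cut to its 7863 best peaks, the members held 25, 29 and 29 peaks in H/R A to C, against 36, 32 and 28 in control A to C. The direction of the difference in means was then turned, and the groups overlapped.

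**Figure D1:**
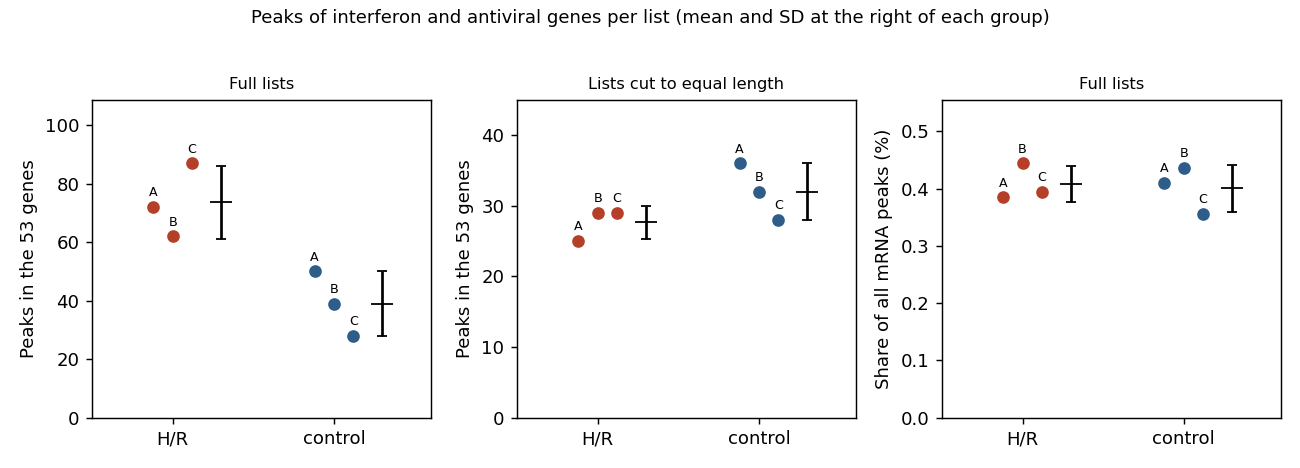
Peaks of the 53 interferon and antiviral genes in each list (points, letters A to C), with the mean and SD of each group; the H/R group is left of the control group. Left, full lists, where the H/R lists hold 62 to 87 peaks and the control lists 28 to 50; middle, each list cut to 7863 peaks, where the ranges overlap; right, the member peaks as a percentage of all mRNA peaks, near 0.4% in both groups.

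The median enrichment of the member peaks lay near that of all peaks in each list. The median fold enrichment of member peaks was 9.75, 13.8 and 10.25 in H/R A to C, where all mRNA peaks had medians of 9.34, 15.5 and 10.05. In control A to C it was 23.7, 28.5 and 28.5, beside 21.8, 33.9 and 28.0 for all mRNA peaks. Peaks were shorter in the H/R lists, with medians of 285 to 415.5 bases for members and 246 to 353 bases for all genes, against 494 to 1093 and 501.5 to 577 bases in the control lists. The false discovery rate that the authors deposited with each peak was high for the member peaks. The lowest value among member peaks was 24.98, 33.35 and 27.95% in H/R A to C, against 25, 88.1 and 98.06% in control A to C. No member peak was at 5% or less. The same count was not made over all mRNA peaks, so it does not set the members apart. Of 10 fixed NSC markers 4 or 5 were called in each list (Nes, Sox2, Sox9 and Notch1 in all 6), while 5, among them Vim and Pax6, were in none. Of 11 microglia and macrophage markers only P2ry12 was listed, with 1 peak in H/R C, and of 7 fibroblast markers 0 to 2 were called in a list. A marker can be expressed and carry no peak, so these counts do not measure its RNA.

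The share of members called in every list lay near that of all genes. Of the 53 members, 19 were called in all 6 lists, 35.8%, beside 39.5% of all genes with a peak. Another 5 were called in 5 lists, 16 in 2 to 4 lists and 13 in 1 list. H/R C, the longest list, alone held 8 of these 13, H/R A and control A held 2 each, and H/R B held 1. Counts below 6 lists were not made over all genes in this form, so they do not set the members apart. Members called in more H/R than control lists numbered 27, those called in more control than H/R lists numbered 5 (Stat6, Tlr1, Tlr4, Ifit1 and Oas1b), and 21 were called equally often. These were 50.9%, 9.43% and 39.6% of the members, beside 52.4%, 3.92% and 43.7% of all genes. Gbp2 and Ifi205 were called in every H/R list and never in the controls, 2 of 53 members (3.77%), where 4.96% of all genes had this pattern. No member was called in all 3 control lists and no H/R list, a pattern of 0.0698% of all genes. Peak numbers of 7 members were higher in every H/R list than in every control list (among them Gbp2, Gbp6, Gvin1, Ifi205, Irf2 and Isg20), 13.2% of the members beside 14.8% of all genes. For no member were they lower in every H/R list, where 0.12% of all genes were. Without control A, 15 members had more peaks in every H/R list (26.0% of all genes did) and 7 were called only in the H/R lists (10.8% of all genes). Without H/R B these were 12 (32.1% of all genes) and 4 (11.7% of all genes). With lists of equal length only Gvin1 kept more peaks in every H/R list, while Gbp9 had fewer in every one, beside 2.51% and 2.22% of the 6444 genes that still had a peak. The Gvin1 peaks lie at 2 near-identical copies, described below. With full lists and these copies merged, 6 members had more peaks in every H/R list, beside 14.8% of all genes.

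**Figure D2:**
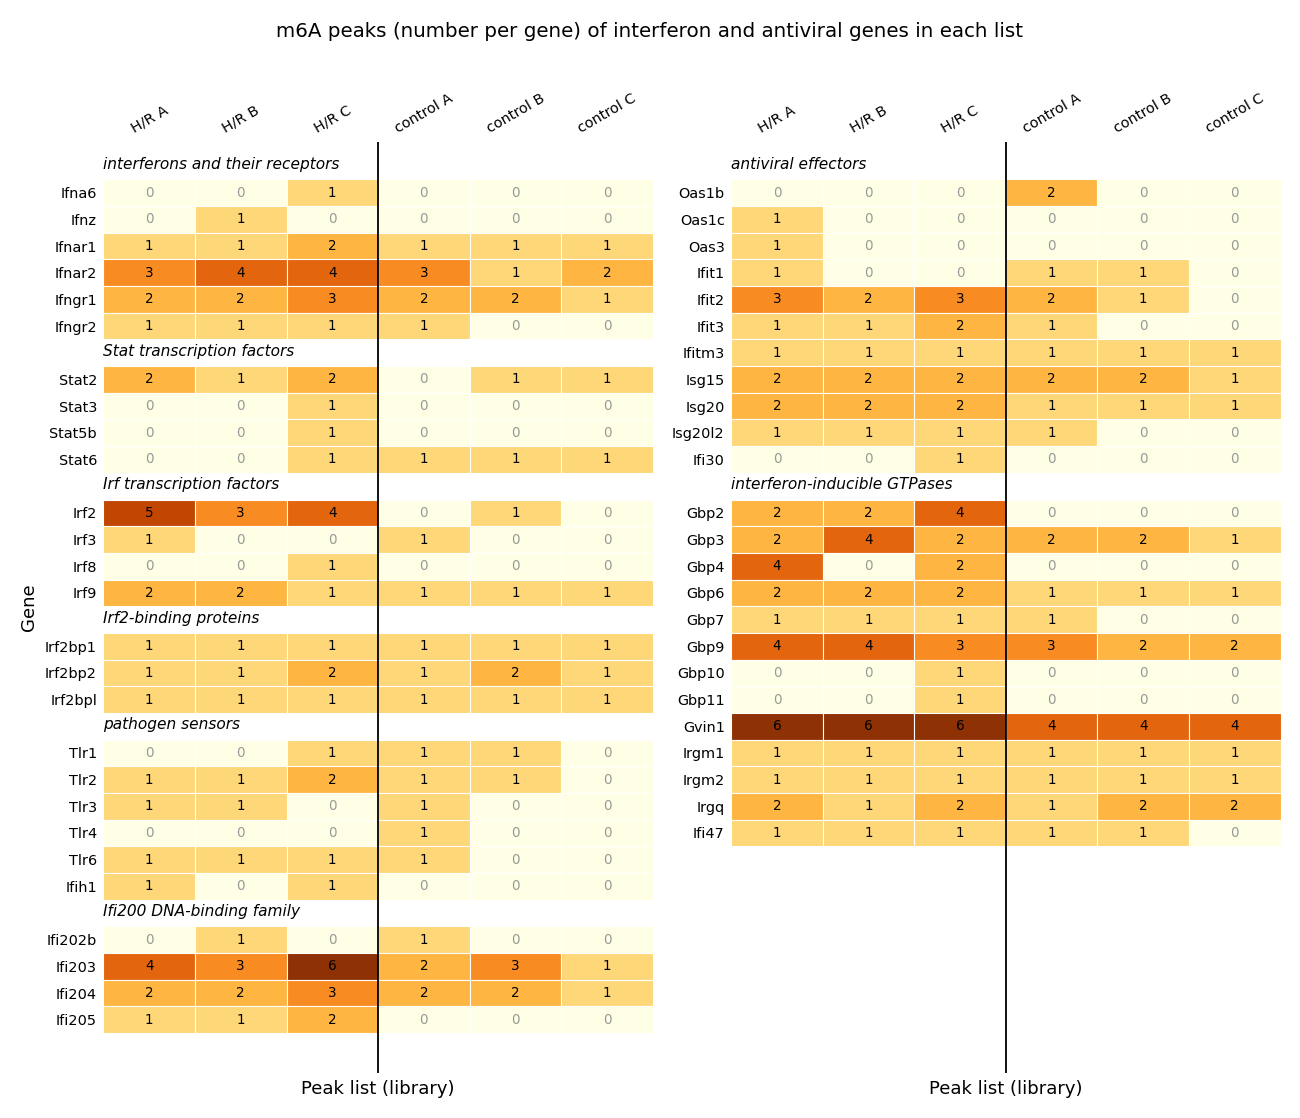
Number of m6A peaks per gene (cell values) for the interferon and antiviral genes reported here, grouped by role, in the 3 H/R lists left of the vertical line and the 3 control lists right of it; darker cells hold more peaks. Gbp2 and Ifi205 are filled in every H/R list and empty in every control list, and Gvin1 holds 6 peaks in each H/R list against 4 in each control list.

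Counted in bases under peaks in place of peaks, 7 members again lay higher in every H/R list, with Ifi203 in and Gvin1 out, beside 16.3% of all genes. Only 1 member lay lower in every H/R list, where 1.09% of all genes did. This was Irgm2, an immunity-related GTPase of autophagy and vacuole defence, with 1 peak in its last exon in all 6 lists. That peak covered 1482, 1667 and 1320 bases in H/R A to C, against 3320, 3146 and 3145 bases in control A to C. In control A it took in the whole exon, and the groups did not overlap. Peaks of all genes were shorter in the H/R lists too, as given above, and the part of this in the result was not tested.

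The interferon receptors were marked in both groups. Ifnar1 and Ifnar2, the paired chains of the type I receptor, and Ifngr1, the ligand-binding chain of the type II receptor, were called in all 6 lists. Ifnar2 held 3, 4 and 4 peaks in H/R A to C, against 3, 1 and 2 in control A to C, so that the groups touched at 3 (exact permutation p = 0.2), and with lists of equal length the difference in means turned to -0.33. Its 5 merged regions (peaks of any list that share at least 1 base) included the last exon, with its centre in the 3'UTR, in all 6 lists. A second lay on the last exon of a shorter transcript that ends early and lacks that 3'UTR, and it was called in H/R A and B, and in control A and C. Ifngr1 held 2, 2 and 3 peaks in H/R A to C, against 2, 2 and 1 in control A to C (exact permutation p = 0.6). Its exon 6, which codes for part of the receptor chain next to the last exon, was called in all 6 lists at folds of 12.6, 19.3 and 19.6 in H/R A to C and 23.6, 23.5 and 21.5 in control A to C. Folds were lower in the H/R lists in most regions. Centred on each list's median, the exon's H/R minus control difference was 0.31 ± 0.25 (log2, SE; limma adjusted p = 0.719). Ifngr2, the signalling chain of the type II receptor, had 1 peak in each H/R list and in control A. The interferons themselves were nearly absent. Ifna6, a type I interferon, had 1 peak in H/R C, and Ifnz, a mouse interferon also called limitin, had 1 in H/R B.

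Of the Stat transcription factors, which carry receptor signals to the nucleus, none was called in all 6 lists. Stat2, a factor of type I signalling, held 2, 1 and 2 peaks in H/R A to C, against 0, 1 and 1 in control A to C, and the groups touched at 1 (exact permutation p = 0.3). Its difference in means turned to -0.33 with lists of equal length and with a p score (10 times the −log10 p) of at least 100. The Stat2 peak near the start codon, in H/R A, H/R C and control C, also overlaps an exon of Apof on the same strand. Stat6, which serves interleukin 4, went the other way and was chosen for mention after its values were seen. Its peak on the last exon, with its centre in the 3'UTR, was listed in H/R C only among the H/R lists, at a fold of 9.03, against folds of 36.8, 41.3 and 23.5 in control A to C. This position also overlaps an exon of Nab2 on the other strand. Stat3 and Stat5b each had 1 peak at the first exon, in H/R C only.

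The Irf factors bind interferon response elements in DNA. Irf2, an antagonist of Irf1 at these elements, held 5, 3 and 4 peaks in H/R A to C, against 0, 1 and 0 in control A to C. The groups did not overlap, with 4.0 ± 1.0 peaks in the H/R group and 0.333 ± 0.577 in the control group (SD, n = 3 each; exact permutation p = 0.1). Of its 6 regions 2 were called throughout the H/R lists and never in the controls, namely the coding exon 7 of 9 (chr8:46837674-46837838 in mm10, 165 bases) and the last exon, with its centre in the 3'UTR (chr8:46845914-46847458). Their folds were low, at 6.51, 6.93 and 5.65 for exon 7 and 5.29, 6.87 and 7.43 for the last exon in H/R A to C. With lists of equal length only 1 Irf2 peak was left, in H/R C. Irf9, the DNA-binding partner of Stat2 in type I signalling, was called in all 6 lists with 2, 2 and 1 peaks in H/R A to C, against 1 in each control list. The second Irf9 peak in H/R A and B (chr14:55603571-55604243) also overlaps an exon of Rnf31 on the same strand. Irf3, which drives interferon transcription after RNA sensing, was called in H/R A and control A only. Irf8, a factor of blood cell development, had 1 peak, in H/R C. The 3 Irf2-binding corepressors (Irf2bp1, Irf2bp2 and Irf2bpl) were called in all 6 lists. Irf2bp1 carried the strongest enrichment of any member in each list, chosen after its values were seen, at folds of 135.6, 68.5 and 142.3 in H/R A to C, against 229.4, 358.6 and 161.6 in control A to C. Its peak lies on the single exon of the gene, and the centre of the peak is in coding sequence.

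Of the pathogen sensors, the Toll-like receptors and Ifih1 were called in 1 to 5 of the lists. Tlr2, the cell-surface receptor for bacterial lipoproteins, held 1, 1 and 2 peaks in H/R A to C, against 1, 1 and 0 in control A to C (exact permutation p = 0.6). The region shared by the groups was its last exon, with its centre in coding sequence. Tlr6, a partner of Tlr2, was called in the 3 H/R lists and control A, and Tlr3, the endosomal sensor of double-stranded RNA, in H/R A, H/R B and control A. Tlr1, another partner of Tlr2, had peaks at different places in the same exon, near the start codon in H/R C and in the coding sequence further on in control A and B. Ifih1, the cytosolic double-stranded RNA sensor MDA5, had a peak on its first exon in H/R A and C, and Tlr4, the lipopolysaccharide receptor, had 1 in control A only. None of these genes was called in all 6 lists. The Ifi200 genes, also counted as sensors when roles were planned, are given next.

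The Ifi200 family, DNA-binding proteins most of which carry a pyrin domain, sits in a cluster on mouse chromosome 1. Ifi203 held 4, 3 and 6 peaks in H/R A to C, against 2, 3 and 1 in control A to C, and the groups touched at 3 (exact permutation p = 0.2). Ifi204 held 2, 2 and 3 peaks in H/R A to C, against 2, 2 and 1 in control A to C (exact permutation p = 0.6). Ifi205 held 1, 1 and 2 peaks in H/R A to C and 0 in each control list (exact permutation p = 0.1). The Ifi205 peak common to the H/R lists was the coding exon 5 of 7 (chr1:174017234-174017656 in mm10, 423 bases), at folds of 7.55, 11.5 and 12.2 in H/R A to C. An exon of 285 bases that opens the coding sequence was called in all 6 lists for Ifi203 and Ifi204, and only in H/R C for Ifi205. Its folds in Ifi203 were 13.1, 18.9 and 9.18 in H/R A to C, against 24.1, 66.4 and 41.5 in control A to C, with every control list above every H/R list. Of all regions called in all 6 lists 54.3% had this order, and the centred values are given below. A further Ifi203 region (chr1:173934765-173935177) was called at 8.64, 10.2 and 10.25 in H/R A to C and in no control list. It has 168 bases in exon 5 of the RefSeq transcript used here and 245 outside that exon. The authors listed its peaks under a different transcript, whose exons were not compared. In Ifi204 the folds of the 285-base exon were 7.54, 24.6 and 21.8 in H/R A to C, against 24.4, 39.5 and 28.1 in control A to C, and the groups overlapped. Ifi202b, which lacks that exon among its listed peaks, was called in H/R B and control A only. With lists of equal length the difference in means was -0.67 for both Ifi203 and Ifi204.

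The coding part of this exon is shown for the 3 genes because the same exon was called in each of them, at different frequency. Sequences were read from the RefSeq mouse genome GRCm38.p6, the same build as mm10, on the transcript strand, here the minus strand of chromosome 1 (Ifi203 chr1:173937742-173938006, Ifi204 chr1:173761599-173761863, Ifi205 chr1:174028198-174028462). Capitals mark DRACH, that is A, G or T, then A or G, then A, then C, then A, C or T, searched on the transcript strand with overlapping matches counted.
Ifi203: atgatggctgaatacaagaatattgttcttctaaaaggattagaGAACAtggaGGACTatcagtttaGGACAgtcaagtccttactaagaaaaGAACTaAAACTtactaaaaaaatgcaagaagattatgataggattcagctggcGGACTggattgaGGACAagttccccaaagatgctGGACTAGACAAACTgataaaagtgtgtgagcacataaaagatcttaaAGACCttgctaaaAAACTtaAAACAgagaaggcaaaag
Ifi204: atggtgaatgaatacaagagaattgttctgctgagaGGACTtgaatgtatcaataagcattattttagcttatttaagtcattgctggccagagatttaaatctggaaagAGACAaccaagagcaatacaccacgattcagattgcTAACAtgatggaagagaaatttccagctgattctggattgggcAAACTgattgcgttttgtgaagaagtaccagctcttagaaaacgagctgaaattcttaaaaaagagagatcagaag
Ifi205: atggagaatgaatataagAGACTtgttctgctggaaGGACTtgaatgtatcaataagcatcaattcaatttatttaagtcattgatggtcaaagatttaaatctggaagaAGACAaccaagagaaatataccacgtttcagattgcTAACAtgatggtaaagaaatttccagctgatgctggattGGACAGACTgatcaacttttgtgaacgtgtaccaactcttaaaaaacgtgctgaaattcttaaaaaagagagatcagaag
The coding part held 13 DRACH matches in Ifi203, 4 in Ifi204 and 6 in Ifi205, and the 5-mer GGACT stood 3 times in Ifi203 and 1 time in each of the other two. Over the whole exon of 285 bases, DRACH matches numbered 13 in Ifi203, 4 in Ifi204 and 7 in Ifi205. Of 651 listed peaks of all genes within 10 bases of the exon's length, 97.2% held a DRACH, with a median of 4, and 31.2% held GGACT on the transcript strand. Over their 285 bases the Ifi204 and Ifi205 exons were 86.7% identical, and Ifi203 was 62.5% identical to Ifi204 and 62.1% to Ifi205. The exon of Ifi211, listed by the authors under the older symbol Mnda and so outside the name rule, differed from that of Ifi204 by 1 base in 285 and was called in the 3 H/R lists and control A. The exon of Ifi207, listed as AI607873, was called in control A only, at a fold of 29.1. That of Mndal, where no list held a peak, was identical to the Ifi203 exon at 277 of 285 bases. Reads from such near-identical exons may be split between genes, and peak calls in this family are uncertain to that extent.

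Of the 11 antiviral effectors, Isg15, Isg20 and Ifitm3 were called in all 6 lists. Isg20, an exonuclease that degrades viral RNA, held 2 peaks in each H/R list and 1 in each control list (exact permutation p = 0.1). The added peak was its first exon (chr7:78914235-78914574 in mm10, 340 bases, near the start codon), at folds of 6.76, 8.98 and 8.52 in H/R A to C, and the last exon was called in every list. With lists of equal length each list held 1 Isg20 peak. Ifit2, which binds viral RNA, held 3, 2 and 3 peaks in H/R A to C, against 2, 1 and 0 in control A to C, and the groups touched at 2 (exact permutation p = 0.2). Isg15, a ubiquitin-like modifier, held 2 peaks in every list other than control C, which had 1. Ifitm3, which blocks fusion of viruses with endosomes, had 1 peak in each list. Ifit3 and Isg20l2 were called in the 3 H/R lists and control A, Ifit1 in H/R A and in control A and B, and Ifi30, a lysosomal thiol reductase, in H/R C only. The Oas genes, which make the 2-5A messenger that activates RNase L, were called in 1 list each, Oas1c and Oas3 in H/R A and Oas1b in control A with 2 peaks.

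The interferon-inducible GTPases made up 13 of the 53 members and held 26, 23 and 27 peaks in H/R A to C, against 15, 14 and 12 in control A to C. All mRNA peaks differed in the same direction, with 18706, 13954 and 22038 in H/R A to C, against 12180, 8932 and 7863 in control A to C. Gbp2, a guanylate-binding protein that coats microbe-containing vacuoles, held 2, 2 and 4 peaks in H/R A to C and 0 in each control list (exact permutation p = 0.1). Of its exons 2, both coding, were called in all 3 H/R lists and no control list. Exon 8 of 11 (chr3:142633338-142633550 in mm10, 213 bases) had folds of 9.29, 18.1 and 14.2 in H/R A to C, and exon 10 (chr3:142635783-142635976, 194 bases) 12.1, 27.9 and 13.4. Gbp6 held 2 peaks in each H/R list and 1 in each control list (exact permutation p = 0.1), but the H/R peaks fell on 3 different exons, of which the controls shared exon 10. Gbp3 held 2, 4 and 2 peaks in H/R A to C, against 2, 2 and 1 in control A to C (exact permutation p = 0.6). Gbp9 held 4, 4 and 3 peaks in H/R A to C, against 3, 2 and 2 in control A to C, touching at 3 (exact permutation p = 0.2). Its exon 6 (chr5:105084920-105085165, 246 bases) was called in all 3 H/R lists and no control list, at folds of 7.39, 9.51 and 10.6. Gbp4 held 4 peaks in H/R A and 2 in H/R C and none in the other lists. Cut to equal length by p score, the lists held 1 Gbp2 peak, in H/R B, and 1 Gbp6 peak, in control C. Gbp9 had 0 in each H/R list, against 1, 1 and 2 in control A to C. The exon 10 peak of Gbp9 had p scores of 331.7, 280.5 and 340.8 in H/R A to C, below the cut in each list. In control A to C the scores of that peak were 428.5, 77.6 and 153.2, above the lower cuts there. The difference in means turned to -0.33 for Gbp6, -1.33 for Gbp9 and -1 for Gbp3, and with a fold of at least 10 it was again -0.33 for Gbp6.

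The same exon recurred across the Gbp genes. The exon before the last, exon 10 of 11 in the transcripts used here, with 194 bases in each gene and wholly coding, was a peak from end to end in Gbp3 and Gbp9 in all 6 lists. In Gbp6 it was called in H/R B and C and in the 3 control lists, in Gbp2 in the 3 H/R lists and no control list, and in Gbp4 in H/R A and C. It was not listed for Gbp7 and Gbp10, which carry an exon of the same length at this place. The sequences are given for the 5 genes in which it was called, since both Gbp regions that were called in all 6 lists are this exon. They were read from RefSeq GRCm38.p6 on the transcript strand, plus for Gbp2 and Gbp3 (chr3:142570893-142571086) and minus for Gbp4 (chr5:105119378-105119571), Gbp6 (chr5:105274187-105274380) and Gbp9 (chr5:105081130-105081323), with DRACH in capitals as above.
Gbp2: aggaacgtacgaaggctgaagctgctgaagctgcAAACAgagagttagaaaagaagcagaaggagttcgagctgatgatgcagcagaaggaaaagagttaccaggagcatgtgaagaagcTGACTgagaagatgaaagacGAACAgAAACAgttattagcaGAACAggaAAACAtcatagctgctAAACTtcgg
Gbp3: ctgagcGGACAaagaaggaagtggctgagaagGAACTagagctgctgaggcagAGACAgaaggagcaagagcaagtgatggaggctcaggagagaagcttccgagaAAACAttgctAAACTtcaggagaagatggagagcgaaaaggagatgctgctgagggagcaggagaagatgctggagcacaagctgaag
Gbp4: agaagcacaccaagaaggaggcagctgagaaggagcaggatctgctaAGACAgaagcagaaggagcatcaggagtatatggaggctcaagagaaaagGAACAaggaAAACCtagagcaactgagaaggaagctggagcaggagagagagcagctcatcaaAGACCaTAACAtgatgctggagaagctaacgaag
Gbp6: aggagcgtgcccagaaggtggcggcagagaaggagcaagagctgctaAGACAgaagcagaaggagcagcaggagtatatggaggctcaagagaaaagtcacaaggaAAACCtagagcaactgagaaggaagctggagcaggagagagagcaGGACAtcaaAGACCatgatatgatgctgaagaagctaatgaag
Gbp9: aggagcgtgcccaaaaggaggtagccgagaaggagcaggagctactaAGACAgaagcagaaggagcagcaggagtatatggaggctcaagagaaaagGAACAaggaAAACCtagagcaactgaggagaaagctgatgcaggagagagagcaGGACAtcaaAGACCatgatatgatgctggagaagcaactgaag
These exons held 7 DRACH matches in Gbp2, 5 in Gbp3, Gbp4 and Gbp9, and 4 in Gbp6, and none held GGACT. Among 1257 listed peaks of all genes within 10 bases of this length, 94.5% held a DRACH, with a median of 3, and 17.98% held GGACT. The exon of Gbp6 was identical to that of Gbp9 at 178 and to that of Gbp4 at 175 of the 194 bases, and Gbp2 matched Gbp3 at 101. The groups differed in the deposited fold of this exon in the same way as in most regions. In Gbp9 it was 13.8, 19.5 and 17.9 in H/R A to C, against 35.7, 28.2 and 29.3 in control A to C, and in Gbp3 16.55, 17.98 and 13.46, against 24.1, 34.5 and 22.9. Every control list lay above every H/R list in both genes.

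Gvin1, a giant GTPase induced by interferon, had 6 peaks listed per H/R list and 4 in each control list (exact permutation p = 0.1), with no spread within either group. The peaks listed under its symbol lay at 2 places on chromosome 7. The first is the Gvin1 gene (chr7:106156535-106215340 in mm10, minus strand), and the second, at chr7:105895118-105953967 on the same strand, is annotated in RefSeq as Gm4070. Each place contributed the same 3 exons, of 8729, 140 and 116 bases. Between the copies the exons of 140 and 116 bases were identical, and the exon of 8729 bases differed at 3 bases (99.97% identity), so a short read can rarely be assigned to one of them. At the Gm4070 copy 3 peaks were called in each H/R list, against 2, 3 and 3 in control A to C. At the Gvin1 copy 3 were called in each H/R list, against 2, 1 and 1 in control A to C. By listed position most of the difference thus lay at the copy annotated as Gvin1, though reads can rarely be assigned to either copy. When an exon called at either copy was counted once, all 3 exons were called in all 6 lists, and the peak number did not differ between the groups.

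**Figure D3:**
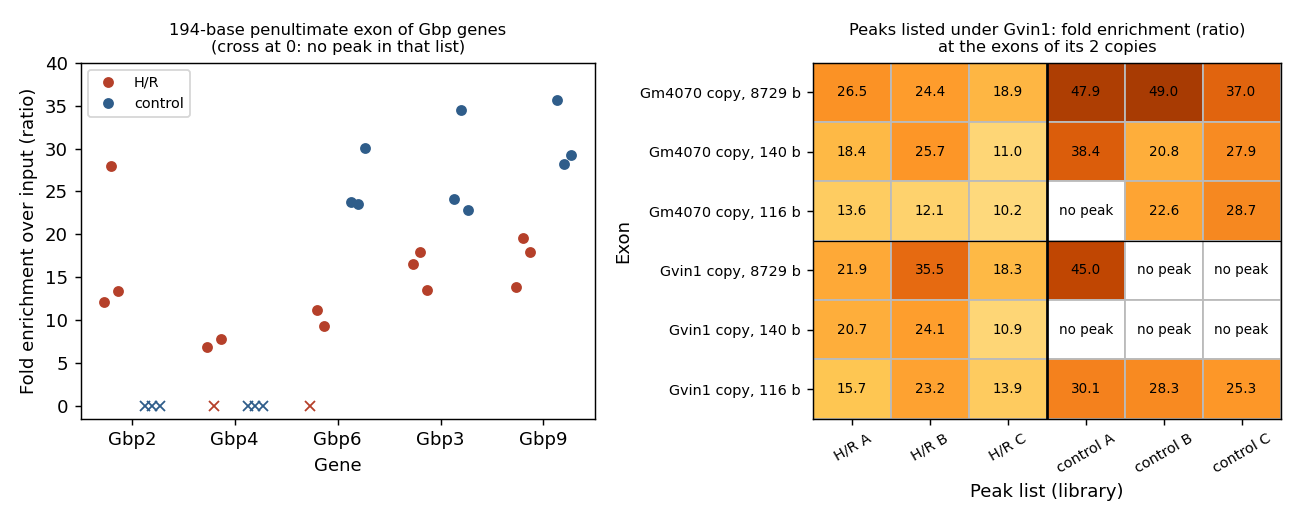
Left, deposited fold enrichment (ratio of immunoprecipitate to local background) of the 194-base exon before the last in 5 Gbp genes, 1 point per list, H/R left of control, with a cross at 0 where the list has no peak. Right, the same measure for the 3 exons of each Gvin1 copy in the 3 H/R lists left of the line and the 3 control lists; every exon has a peak at one copy or the other in each list.

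Of the other GTPases, Irgm1 and Irgm2, regulators of the family that protect host membranes, had 1 peak in each list, and Irgq, a divergent relative, 1 or 2. Ifi47, an interferon-inducible GTPase, had 1 peak on its last exon in each H/R list and in control A and B, and 0 in control C (exact permutation p = 1), and with a fold of at least 10 its difference in means was -0.67. Gbp7 was called in the 3 H/R lists and control A, and Gbp10 and Gbp11 in H/R C alone.

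Merged over the lists, the member peaks formed 110 regions. Of these, 9 (8.18%) were called in all 3 H/R lists and no control list, where 6.21% of all 27079 regions were. They lay in Gbp2 and Irf2 (2 each), Gbp9, Gvin1, Ifi203, Ifi205 and Isg20, and 4 of the 9 were in genes that were called in all 6 lists through other regions. The Gvin1 region is its exon of 140 bases. The identical exon of the copy annotated as Gm4070 was called in all 6 lists. Without control A, 19 member regions were called only in the H/R lists, beside 11.3% of all regions, and without H/R B 15, beside 14.2%. No member region was called in all 3 control lists and no H/R list. Regions seen in 1 list only numbered 36, of which 24 were in H/R C, the longest list. That count was not made over all regions, so it does not set the members apart. Another 19 regions (17.3%) were called in all 6 lists, beside 22% of all regions.

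In these 19 regions the enrichment itself could be compared. The deposited fold was lower in every H/R list than in every control list in 12 of the 19, beside 54.3% of the 5950 regions called in all 6 lists, so the lists were first centred on their median log2 fold over these regions. In the limma fit of the centred values across all 5950 regions, 0 of the 19 member regions passed a Benjamini-Hochberg adjusted p of 0.05 in either direction, and 1 had an unadjusted p below 0.05. Over all regions 0.0504% were higher and 0.0672% lower in H/R at that threshold, and 637 had an unadjusted p below 0.05. The median difference of the 19, H/R minus control, was 0.05 on the log2 scale, beside -0.03 over all regions, with 11 positive and 8 negative. The lowest difference was that of the 285-base exon of Ifi203, at -0.88 ± 0.33 (log2, SE; limma adjusted p = 0.384). The highest was that of the last exon of Irgm2, at 0.59 ± 0.32 (adjusted p = 0.56), followed by that of Isg15 at 0.54 ± 0.32 (adjusted p = 0.606). The centred values of the groups overlapped in each of the 19 regions. Without centring 0 member regions were higher and 6 were lower in H/R at the same threshold, beside 0.0672% and 39.5% of all regions.

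**Figure D4:**
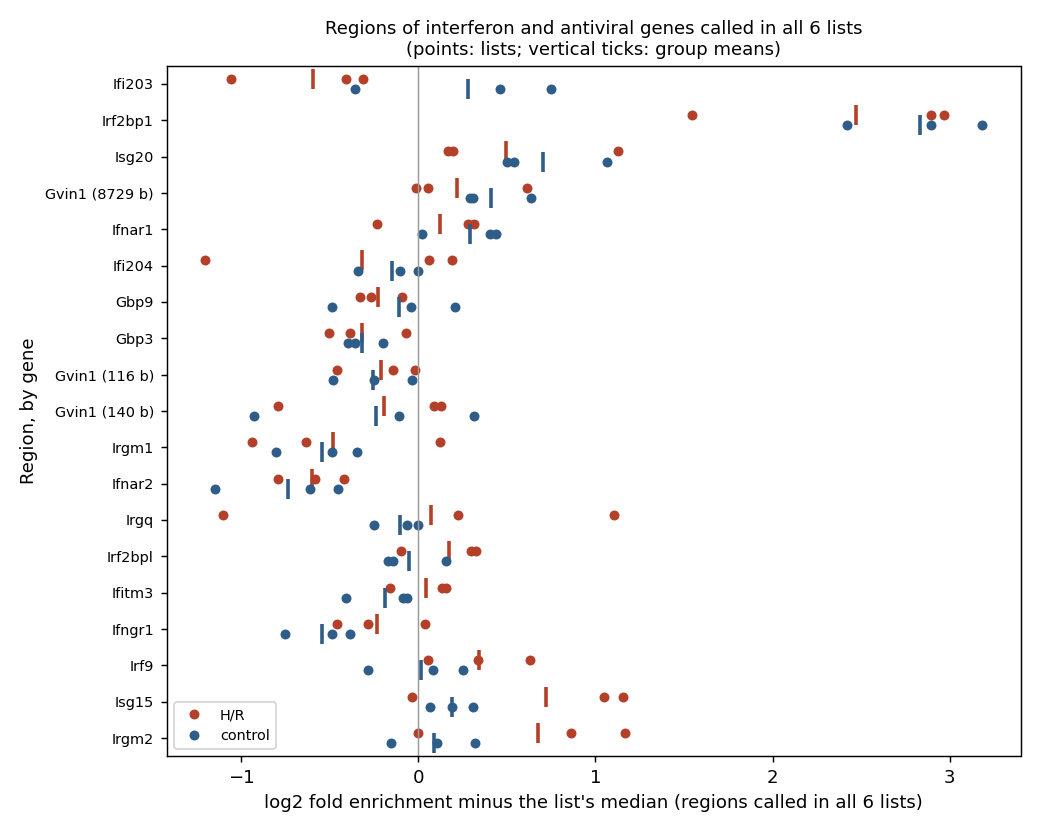
Log2 fold enrichment minus the median of the list, for the 19 regions of interferon and antiviral genes called in all 6 lists, H/R above control in each row, with points for lists and vertical ticks for group means. Rows run from the lowest to the highest H/R minus control difference, from Ifi203 to Irgm2, and the groups overlap in each; Irf2bp1 lies highest in both groups.

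Most member peaks lay in coding sequence. On the listed or matching transcript 310 of 338 member peaks could be placed by their centre, with windows reaching 100 bases to each side of a start or stop codon as classes of their own. Coding sequence took 60.1% of the placed member peaks in the H/R lists and 60.7% in the control lists, beside 56.3% and 54.3% of all mRNA peaks. The 3'UTR took 16.7% in the H/R lists and 24.3% in the control lists, beside 17.1% and 22.0% of all mRNA peaks. In single lists the 3'UTR share was 16.7, 23.2 and 12.3% in H/R A to C, against 27.1, 22.9 and 20.8% in control A to C, so that the groups overlapped. The window at the start codon took 11.8% in the H/R lists and 6.54% in the control lists, beside 12.4% and 10.1% of all mRNA peaks. With lists of equal length the start codon window took 7.79% in the H/R lists and 7.95% in the control lists, beside 10.0% and 9.49% of all mRNA peaks. Last exons held 42.9% of member peaks in the H/R lists and 56.1% in the control lists, beside 28.1% and 35.7% of all mRNA peaks. In single lists the groups touched at 50%, in H/R B and control C. With lists of equal length last exons held 62.3% in the H/R lists and 60.2% in the control lists, beside 34.2% and 36.8% of all mRNA peaks. Of the placed member peaks 291 of 310 had an end exactly at an exon end and 195 covered a whole exon, the deposited peaks having been clipped to exons. Peaks with such an end made up 92.6% of members in the H/R lists and 96.3% in the control lists, beside 95.5% and 97.6% of all mRNA peaks. For whole exons the shares were 59.1% and 70.1%, beside 67.4% and 69.4% of all mRNA peaks. Of 185 distinct positions of member peaks, 29 also overlapped an exon of another gene, a count not made over all peaks. Member regions held a median of 21.8 DRACH matches per kb on the transcript strand, beside 19.6 over all regions.

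**Figure D5:**
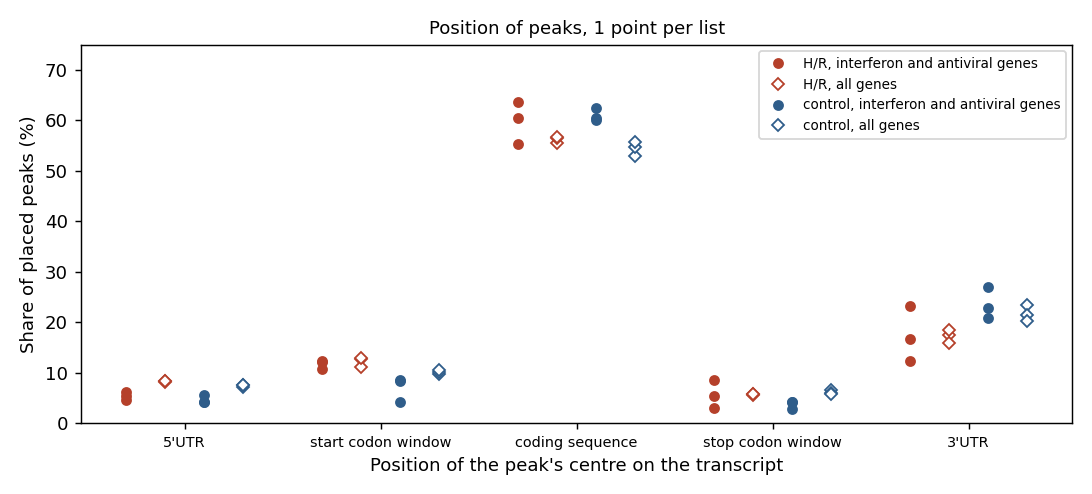
Share of placed peaks in percent by the position of the peak's centre, 1 point per list, for the interferon and antiviral genes (filled circles) and all genes (open diamonds), with H/R left of control in each class. Coding sequence holds 55.4 to 63.6% of member peaks in the H/R lists and 60.0 to 62.5% in the control lists.

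Of 59 other genes of the pathway, taken from a list by function and not by symbol, 48 had a peak and 19 were called in all 6 lists, beside 39.5% of all genes. Peak numbers were higher in every H/R list than in every control list for 9 of the 48, beside 14.8% of all genes, and lower in every H/R list for 0, beside 0.12%. Jak2, a kinase of the type II interferon receptor, held 3 peaks in each H/R list, against 2, 1 and 0 in control A to C. Trim25, a ubiquitin ligase for the RNA sensor RIG-I, held 4, 3 and 5 in H/R A to C, against 0, 1 and 0 in control A to C. Usp18, which removes Isg15 and dampens interferon signalling, held 2, 1 and 2, and Sp100, a nuclear body protein, held 2, 2 and 1 in H/R A to C, and both had 0 in every control list. The other 5 were Parp9 and its partner Dtx3l, Tirap, an adaptor of Toll-like receptors, Nmi, which binds Stat proteins, and Tank, which binds Traf proteins. None of the 24 regions of these genes that were called in all 6 lists passed the limma threshold (lowest adjusted p = 0.505), and 0 had an unadjusted p below 0.05.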

How the data were processed

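Immunoprecipitated and input RNA of C17.2 cells (3 H/R and 3 control samples of each) had been sequenced. Per the labels and the study's methods, the authors trimmed reads with cutadapt 1.9.3, aligned them to mm10 with HISAT2 2.0.4 and called peaks with MACS per library, immunoprecipitate against input, without pooling replicates. The peaks were then clipped to exons. For each peak the authors deposited a p score (10 times the −log10 p), a fold enrichment, that is a ratio to the local background, and a false discovery rate in percent. The peak lists hold no read counts. The study gives read totals per library, which were not used here, so no value is scaled to depth.

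Members were taken by symbol, and peaks sharing at least 1 base were merged into regions. Members and gene lists were chosen with earlier results of these data known. Counts per list were compared with an exact permutation test for single genes. Per-library values were given for members with no overlap between groups, for those called in every list of 1 group only, and for those called in all 6 lists with 3 or more regions, and for a few others described where they stand. Fold enrichments of regions called in all 6 lists were compared on the log2 scale, centred on each list's median, with limma 3.58.1 (R 4.3.3, Benjamini-Hochberg adjustment), after a test on simulated data. Positions and sequences came from RefSeq GRCm38.p6 and GENCODE vM21, and all 53 symbols matched the RefSeq gene table. Alternatives were lists of equal length, a fold of at least 10, a p score of at least 100, covered bases, another merging rule, other scalings and leaving out each list. The lncRNA and circRNA lists entered only the closing section. Some members enter the counts and are not reported by name here.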

Additional observations from a re-analysis of the deposited data

Results flagged for a closer look

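The lists of lncRNA and circRNA peaks lay outside the comparisons above, and 9 entries in them were tied to interferon and antiviral genes. All 9 held more peaks over the 3 H/R lists than over the 3 control lists, as did all entries together, with 1980 to 3243 lncRNA and 1329 to 1947 circRNA peaks in an H/R list, against 1047 to 1594 and 705 to 1076 in a control list. In 7 of the 9 the highest H/R list exceeded the highest control list, and these are given next. Under Ifngr1, as an lncRNA that overlaps its exons in sense, 1 peak was listed in the H/R lists and 0 in the control lists. Gm16675, which is bidirectional to Irf2, had 2 peaks in the H/R lists and 0 in the control lists. An lncRNA listed under Irf3 had 4 peaks in the H/R lists and 2 in the control lists, and Bcl2l12, antisense to Irf3, had 1 in the H/R lists and 0 in the control lists. Phrf1, antisense to Irf7, had 1 peak in the H/R lists and 0 in the control lists. An lncRNA listed under Isg20 had 2 peaks in the H/R lists and 0 in the control lists. For circRNA of Ifi202b 7 peaks were listed in the H/R lists (1, 2 and 4 in A, B and C) and 5 in the control lists (2, 2 and 1 in A, B and C). In the other 2, the lncRNA Rrnad1, antisense to Isg20l2, and circRNA of Ifit2, each H/R list held 1 peak, against 1, 1 and 0 in control A to C. These differences were not tested, and the share of all entries that differ in this way was not counted.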

How the results depend on the processing

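Of the alternatives to the main counts, shares and fits, 66 stayed close to the main value, 36 moved and 1 turned its direction. With lists of equal length, 0 members were called only in the H/R lists and 1 only in the control lists (Gbp9), beside 1.13% and 1.32% of all genes. In every H/R list 1 had more peaks (Gvin1) and 1 fewer (Gbp9), and 1 region was called only in the H/R lists and 1 only in the control lists, beside 1.4% and 1.27% of all regions. The mean difference in member peaks per list was then -4.33, against 34.7 with full lists. Single genes turned direction with lists of equal length, to differences of -1 for Gbp3, -1.33 for Gbp9, -0.67 for Ifi203 and Ifi204, and -0.33 for Gbp6, Ifnar2 and Stat2. With a fold of at least 10 that mean difference was 6.33, 1 member was called only in the H/R lists (Gbp2) and 1 only in the control lists (Stat6), 2 had more peaks in every H/R list and 1 fewer (beside 1.58%, 0.474%, 3.39% and 1.09% of all genes), and the differences were -0.33 for Gbp6 and -0.67 for Ifi47. With a p score of at least 100, 4 members were called only in the H/R lists, beside 5.97% of all genes, and the difference of Stat2 was -0.33. Counted in covered bases, 1 member was lower in every H/R list, beside 1.09% of all genes. Without centring, 6 regions passed the threshold, all lower in H/R.

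Leaving out each list in turn gave 2 to 7 members called only in the H/R lists, 0 to 1 only in the control lists, 7 to 15 with more peaks in every H/R list and 0 to 1 with fewer, and 10 to 19 regions called only in the H/R lists and 0 to 1 only in the control lists. Shares over all genes moved too, to 5.48 to 11.7% called only in the H/R lists, 0.12 to 0.262% only in the control lists, 15.8 to 32.1% with more peaks and 0.181 to 0.353% with fewer, and over all regions to 6.86 to 14.2% and 0.0997 to 0.207%. The highest member counts for H/R came without control A, the longest control list.

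Position shares moved as follows. With each base counted, the H/R shares were 4.13% for the 5'UTR, 5.55% for the start codon window, 54.3% for coding sequence and 28.3% for the 3'UTR, and the control shares 48.9% for coding sequence, 8.65% for the stop codon window and 34.3% for the 3'UTR. When lists were cut to equal length, shares in H/R were 6.49% for the 5'UTR and 7.79% for the start codon window, and the control shares 3.41% for the 5'UTR, 7.95% for the start codon window, 56.8% for coding sequence and 4.55% for the stop codon window.

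The causes of these changes were not tested, other than that shorter lists hold fewer peaks by construction. The cut to equal length kept lower p scores in the control lists than in the H/R lists, as given above. The counts with the Gvin1 copies merged, and without the second copy, were chosen after seeing the data. In full lists they gave 6 and 7 members with more peaks in every H/R list, beside 14.8% of all genes in both. No paired analysis was possible because the lists carry letters, not the replicate numbers of the labels.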
